A study of Mus musculus with 5 samples.

Results

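The comparison covered lung maturation after neonatal hyperoxia, from the first postnatal week to adulthood. It set 1 unsorted single-cell RNA sequencing library of mouse lung at postnatal day 60 (pnd60) against 1 unsorted library at pnd7, both from mice that had been given hyperoxia as newborns. Barcodes with over 700 and under 8000 genes detected and with under 5% of their counts from mitochondrial genes (names starting with mt-) were kept. This left 1246 of 2664 barcodes at pnd7 and 4756 of 5632 at pnd60, together 6002 of the 13200 cells that passed the same filter over all 5 libraries of the series. No barcode occurred in both libraries.

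C57BL/6J mice under 12 h old had been placed with their dams in more than 95% O2 for 3 days, and the dams changed places every 24 h with those of litters kept in room air. The pups then recovered in room air until the lungs were taken at pnd7 or pnd60. The pnd7 lungs had therefore been out of oxygen for days and were not lungs at the end of the exposure. The series also held an unsorted room air library at each age, which is given beside the hyperoxia values below, and a library of cells sorted at pnd7, not analysed here. The study states that cells of 3 lungs were pooled at pnd7 for the sort, and whether this holds for the unsorted libraries is not clear from the sources used here.

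The mouse lung builds most of its alveoli in the weeks after birth. In that period myofibroblasts lay down elastin at the tips of growing septa, capillary and epithelial cells divide, and the mesenchyme later thins out as the septa mature. The adult lung divides little, is rich in resident lymphocytes, and keeps its alveoli open with surfactant, a mixture of lipids and proteins made by type II cells.

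With 1 library an age there was no replicate, so no difference was tested across mice, and a litter, a dissociation or a capture that differed between the ages cannot be told apart from age. Levels are counts of unique molecules summed over cells and scaled to a common total (CPM, the usual unit of sequencing counts), and differences are log2 ratios of pnd60 over pnd7, with intervals at the 95% level that cover counting error only. A level of 0 was set to a floor of 3 counts in its library, and the ratio is then a bound at that floor. Such a bound is not the 95% limit. Genes with at least 100 counts in both libraries together are called measured, and a difference of at least 2-fold is called higher or lower. The kept cells held 13576172 counts at pnd7 and 16533775 at pnd60, with medians of 7119.5 and 2315.5 counts a cell. At pnd7 hemoglobin genes took 37.6% of the counts of all barcodes and 2.22% of those kept, against 1.26% and 0.117% at pnd60, and 1387 pnd7 barcodes were dropped for too few genes against 866 at pnd60. How far these gaps in depth and free RNA set the values below was not tested.

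Of 12923 genes measured, 2469 were higher at pnd60 (19.1%) and 1227 lower (9.49%). The median gene had a log2 ratio of 0.29, so a member at that value moved with the library as a whole. When the ratios were centred on the median gene, 1587 genes were higher and 1879 lower, and the share of called genes that were higher went from 66.8% to 45.8%. The balance of higher and lower genes therefore turned on the scaling, and without the filter on cells, where the pnd7 counts hold far more hemoglobin, 6133 genes were higher and 666 lower. The lists of genes below are described by their counts of higher and lower members and by their median beside 0.29.

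The genes with the highest ratios belonged to antibody secretion, natural killer cells, plasmacytoid dendritic cells, airway secretion and mature fibroblasts. The IgA heavy chain feature Igha_1 had 0 counts at pnd7 and 745 CPM at pnd60 (732 to 759), a log2 ratio of at least 11.72. (The suffix marks the second feature of that symbol in the deposited feature table.) Jchain, the joining chain of secreted IgA and IgM, had 0.368 CPM at pnd7 and 155 CPM at pnd60, a log2 ratio of 8.72. These were the products of very few cells: 6 of the 24 pnd60 cells in the cluster led by Igha_1 held 10417 counts of it, 84.5% of the library's total.

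Siglech, a lectin of plasmacytoid dendritic cells, went with that cell class, from 0.0737 CPM (1 count) at pnd7 to 32.2 CPM at pnd60, a log2 ratio of 8.77. At pnd60 88.5% of its counts were in the 23 plasmacytoid dendritic-like cells, a class with 0 cells at pnd7. The receptors Klra8 and Klra4 of the Ly49 family of natural killer cells had 0 counts at pnd7 and 23.9 and 22.6 CPM at pnd60, ratios of at least 6.76 and 6.68, though reads of such close relatives can be split between them.

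Inmt, an N-methyltransferase of mature alveolar fibroblasts, had 3.31 CPM at pnd7 and 935 CPM at pnd60, a log2 ratio of 8.14 (7.72 to 8.60). Alveolar fibroblast-like cells held 68.1% of its pnd60 counts. Lrat, which esterifies retinol for storage, had 0.295 CPM at pnd7 and 44.5 CPM at pnd60, a log2 ratio of 7.24, with 74.6% of the pnd60 counts in the same class. The matrix protease Mmp3 had 0 counts at pnd7 and 14 CPM at pnd60, a ratio of at least 5.99, and 87.9% of these counts were in adventitial fibroblast-like cells. Prmt8, an arginine methyltransferase, had 0.0737 CPM at pnd7 and 17.6 CPM at pnd60, a log2 ratio of 7.90, and it was a gene of type II-like cells, which held 96.6% of its pnd60 counts.

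The genes with the lowest ratios came from a few granulocytes and mast cells and from the mesenchyme of the growing lung. Stfa1, a cysteine protease inhibitor of the stefin A cluster, had 156 CPM at pnd7 and 0.121 CPM (2 counts) at pnd60, a log2 ratio of -10.33. Cstdc5, of the same family, had 162 CPM at pnd7 and 0 counts at pnd60, a ratio of at most -9.80. Camp, the antimicrobial peptide cathelicidin of immature neutrophil granules, had 65.3 CPM at pnd7 and 0.181 CPM (3 counts) at pnd60, a log2 ratio of -8.49. Each of these genes had 99.0% to 100% of its pnd7 counts in 14 neutrophil-like cells, a class with 1.12% of the cells at pnd7 and 1.26% (60 cells) at pnd60. Within neutrophil-like cells Stfa1 had 32042 CPM at pnd7 and 17.9 CPM at pnd60.

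The mast cell and basophil proteases behaved alike. Prss34 went from 17.5 CPM to 0.0605 CPM (1 count), Mcpt4 from 8.40 CPM to 0.0605 CPM (1 count), and Tpsb2 from 25.0 CPM to 0 counts, with ratios of -8.17, -7.12 and at most -7.11. At pnd7 12 mast or basophil-like cells held 99.2% or more of the counts of each, and at pnd60 the class had 32 cells.

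Among the lowest ratios were also genes of the alveolar myofibroblast. Prss35, a serine protease-like protein, had 92.9 CPM at pnd7 and 0.423 CPM at pnd60, a log2 ratio of -7.78, and Agt, angiotensinogen, had 69.5 CPM and 0.484 CPM, a log2 ratio of -7.17. Myofibroblast or smooth muscle-like cells held 82.4% and 91.4% of their pnd7 counts. Twist1, a transcription factor of embryonic mesenchyme, had 12.3 CPM and 0.121 CPM, a log2 ratio of -6.67. Rtl1, a retrotransposon-derived imprinted gene, had 18.6 CPM and 0.242 CPM, a log2 ratio of -6.26, and 155 of its 252 pnd7 counts were in type II-like cells.

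The cells were put into classes from clusters of all 4 unsorted libraries, and each class is called X-like after markers listed for it. Mesenchymal shares were lower and lymphoid shares higher at pnd60. Lymphoid classes made up 9.71% of the cells at pnd7 and 41.8% at pnd60, a log2 ratio of 2.11 (1.84 to 2.38). Mesenchymal classes made up 27.0% and 8.05%, a log2 ratio of -1.74 (-1.96 to -1.53). Epithelial classes had 17% and 13.4%, endothelial 13% and 17.1%, and myeloid 15.2% and 16.8%. The epithelial ratio of -0.35 was lower, down to -0.97, under all 7 other ways of filtering or classing the cells that were run, and the endothelial ratio of 0.40 was 2.86 with coarser clusters. In shares of cells, a rise of one class lowers all others, and in sums over a library fewer cells of a type and less RNA per cell cannot be told apart.

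**Figure D1:**
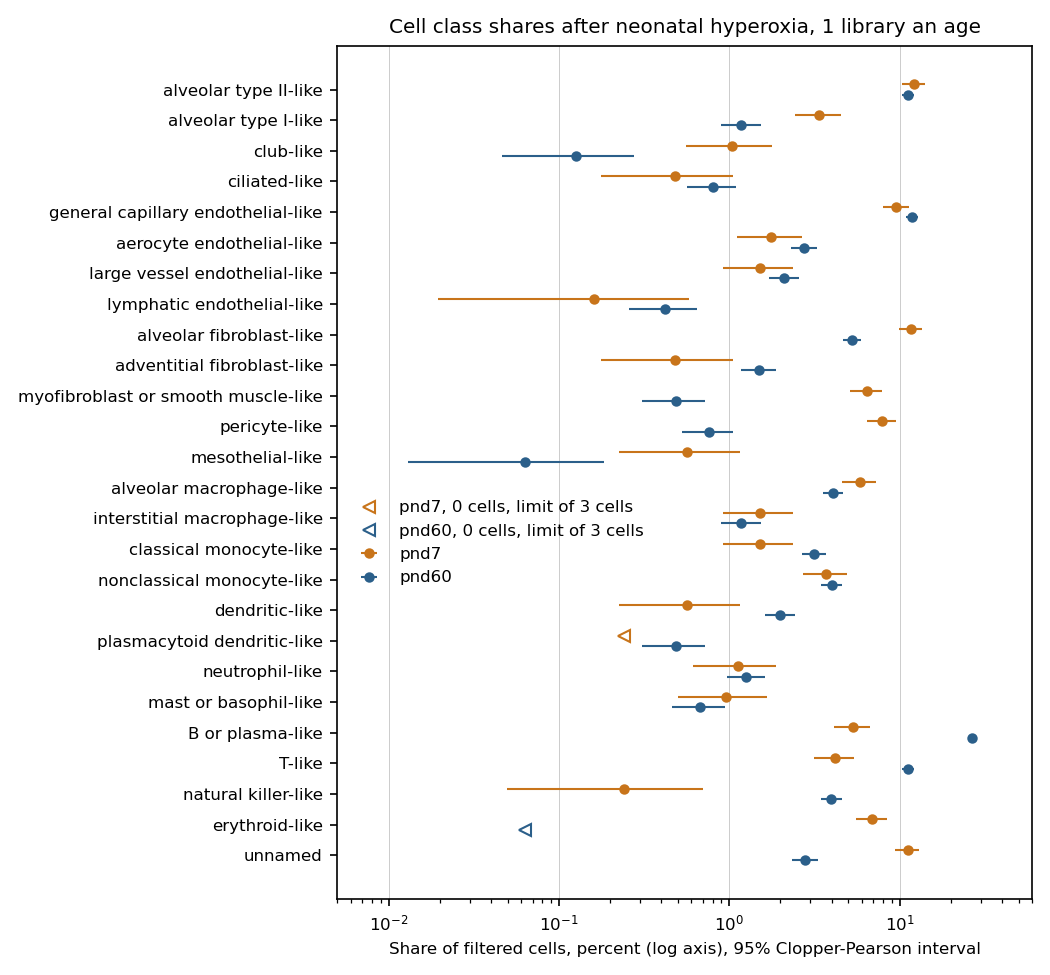
Share of filtered cells (percent, log axis) in each cell class at pnd7 (orange) and pnd60 (blue) after neonatal hyperoxia, with 95% Clopper-Pearson intervals; open triangles mark classes with 0 cells at the limit that 3 cells would give. Myofibroblast or smooth muscle-like, pericyte-like and erythroid-like cells sit far to the left at pnd60, and B or plasma-like, T-like and natural killer-like cells far to the right.

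B or plasma-like cells went from 66 cells (5.30%) to 1266 cells (26.6%), a log2 ratio of 2.33. T-like cells went from 4.17% to 11.2%, a log2 ratio of 1.43. A T-like cluster led by Rag1 and Dntt, genes of lymphocyte precursors in the thymus, held 13 pnd7 and 17 pnd60 cells, and without it the T-like shares were 3.13% and 10.9%, a log2 ratio of 1.80. Natural killer-like cells were 3 of 1246 at pnd7 and 189 of 4756 at pnd60, 0.241% and 3.97%, a log2 ratio of 4.04 (2.48 to 6.34). Conventional dendritic-like cells went from 0.562% to 2.00%, a log2 ratio of 1.83, and classical monocyte-like cells from 1.52% to 3.15%, a log2 ratio of 1.05. The alveolar macrophage-like share was 5.86% and 4.08%, a log2 ratio of -0.52.

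In the mesenchyme, myofibroblast or smooth muscle-like cells went from 80 cells (6.42%) to 23 cells (0.484%), a log2 ratio of -3.73 (-4.47 to -3.05). At pnd7 all 80 were in a cluster led by Agt, Aspn and Htra1, and at pnd60 21 of the 23 were in another, with Hhip and Lum among its leading genes. Pericyte-like cells, named after the cells that wrap capillaries, went from 7.87% to 0.757%, a log2 ratio of -3.38. They had more Acta2 than myofibroblast or smooth muscle-like cells, 4866 against 4378 CPM at pnd7 and 3027 against 1777 CPM at pnd60. The class may therefore not hold pericytes alone. Of the 98 pnd7 pericyte-like cells, 47 were in a cluster with 0.386 times the median counts of their libraries and 6 aerocyte markers raised. That cluster had 1 cell at pnd60 and 0 cells in both air libraries, where the pericyte-like log2 ratio was -1.57. The cluster of the other 51 had 7 myofibroblast or smooth muscle markers raised. Alveolar fibroblast-like cells went from 11.6% to 5.26%, a log2 ratio of -1.15. Adventitial fibroblast-like cells, of the sheaths around vessels and airways, went the other way, from 6 cells (0.482%) to 71 cells (1.49%), a log2 ratio of 1.63 (0.44 to 3.13).

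Type II-like cells made up 12.1% at pnd7 and 11.3% at pnd60, a log2 ratio of -0.10 (-0.37 to 0.17). Type I-like cells, the thin cells of gas exchange, went from 3.37% to 1.18%, a log2 ratio of -1.52. The pnd7 type I-like cells held 44895 CPM of the type II gene Sftpc against 4015 CPM at pnd60, where type II-like cells had 215467 and 138373 CPM. General capillary-like cells had 9.55% and 11.8%, a log2 ratio of 0.31, and aerocyte-like cells, the Car4-positive capillary cells of gas exchange, 1.77% and 2.75%, a log2 ratio of 0.64 whose interval of -0.02 to 1.36 held 0. Erythroid-like cells were 6.90% at pnd7 and 0 of 4756 at pnd60, which allows a share of up to 0.0631%, a log2 ratio of at most -6.77. Of these pnd7 cells, 64 were in a cluster with 8 myofibroblast or smooth muscle markers raised and Agt, Actg2 and Tnc among its leading genes. The other 22 were in a cluster with the lymphatic marker Mmrn1 among its leading genes. The clusters had 0.527 and 0.443 times the median counts of their libraries. Whether these cells were erythroid is therefore not settled. Cells left unnamed were 11.2% and 2.80%. Of the 139 at pnd7, 90 were in a cluster led by Marco and cell cycle genes and 33 in another led by cell cycle genes alone.

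Transcripts of dividing cells were lower in almost every member. Of 26 mitotic genes listed, 25 were measured, 24 were lower at pnd60 and 0 higher, with a median log2 ratio of -2.52. Cdk1, the kinase that drives entry into mitosis, had 93.5 CPM at pnd7 and 10.3 CPM at pnd60, a log2 ratio of -3.18. Ccnb2, a cyclin partner of that kinase, had 76.2 and 11.9 CPM, a log2 ratio of -2.68. Ube2c, the ubiquitin-conjugating enzyme that marks cyclins for destruction, had 150 and 20.1 CPM, a log2 ratio of -2.91. The member that stayed under 2-fold was Bub1b, of the spindle checkpoint, with 33.8 and 17.6 CPM. Of 20 DNA replication genes 13 were lower and 0 higher, with a median of -1.38. Tyms, which makes thymidylate, was the lowest of them at 65.9 and 10.6 CPM, and Pcna, the sliding clamp, had 130 and 105 CPM.

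Mitotic genes are repressed in resting cells through a short promoter element, the cell cycle genes homology region, and activated through CCAAT boxes. The RefSeq promoters of the mitotic genes (GRCm38.p6, 250 bases before the start site to 50 after it) were searched on both strands for TTTGAA, for its variant TTCGAA and for CCAAT. A promoter was matched for 21 of the 26 genes, 22 promoters in all. TTTGAA was in 18 of the 22 (81.8%) against 17.9% of 32851 promoters of that length, TTCGAA in 3 (13.6%) against 1.56%, and CCAAT in 20 (90.9%) against 37.4%. TTTGAA and CCAAT stood together in 18 of the 22 (81.8%) against 6.95% of all. The promoters of Cdk1, Ccnb2 and Ube2c are shown in the gene's sense. Matches are in capitals on whichever strand they were found, so TTCAAA and ATTGG are matches on the other strand. The promoter of Bub1b, the member under 2-fold, is not shown and held 1 TTTGAA, 1 TTCGAA and 1 CCAAT match. In Ube2c a pair of CCAAT matches overlap in CCAATTGG. A match is a string of letters and not a shown site.
Cdk1, chr10:69352863-69353162, minus strand: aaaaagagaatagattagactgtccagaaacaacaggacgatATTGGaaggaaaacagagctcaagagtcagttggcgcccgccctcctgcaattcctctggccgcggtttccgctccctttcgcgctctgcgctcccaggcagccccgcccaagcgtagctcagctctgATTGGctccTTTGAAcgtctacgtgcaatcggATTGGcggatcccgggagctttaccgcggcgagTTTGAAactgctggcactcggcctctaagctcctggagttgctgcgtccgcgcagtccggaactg
Ccnb2, chr9:70421505-70421804, minus strand: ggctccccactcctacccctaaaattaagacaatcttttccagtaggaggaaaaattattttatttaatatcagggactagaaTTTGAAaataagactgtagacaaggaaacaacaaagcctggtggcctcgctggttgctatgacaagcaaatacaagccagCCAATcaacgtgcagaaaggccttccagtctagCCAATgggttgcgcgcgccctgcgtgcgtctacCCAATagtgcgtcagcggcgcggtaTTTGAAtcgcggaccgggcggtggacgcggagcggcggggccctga
Ube2c, chr2:164769679-164769978, plus strand: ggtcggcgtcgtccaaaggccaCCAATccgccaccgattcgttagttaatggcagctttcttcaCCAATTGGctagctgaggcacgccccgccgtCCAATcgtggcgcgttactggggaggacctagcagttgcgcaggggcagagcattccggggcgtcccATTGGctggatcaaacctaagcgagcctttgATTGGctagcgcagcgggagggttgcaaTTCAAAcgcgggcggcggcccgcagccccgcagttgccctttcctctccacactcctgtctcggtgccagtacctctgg

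The cells that held the mitotic transcripts differed between the ages. Summed over the list, the level was 1966 CPM at pnd7 and 365 CPM at pnd60 over all cells, a log2 ratio of -2.43. In general capillary-like cells it was 3291 CPM and 20.9 CPM (25 counts in 563 cells), a log2 ratio of -7.30. In myofibroblast or smooth muscle-like cells it was 2114 CPM against 0 counts, a ratio of at most -5.28, and in pericyte-like cells 1149 against 66.5 CPM, a ratio of -4.11. The cells given these names, of the growing septum, had hardly any mitotic transcripts in the adult. Alveolar macrophage-like cells, which renew themselves in the adult, had 2700 CPM at pnd7 and 737 CPM at pnd60, a ratio of -1.87. T-like cells, whose mix of clusters differed between the ages, had 2754 and 258 CPM, a ratio of -3.42. Their largest cluster was the same, with 30 of 52 cells at pnd7 and 220 of 535 at pnd60. Dendritic-like cells had 2161 CPM (149 counts in 7 cells) and 2531 CPM (95 cells), a ratio of 0.23 whose interval held 0. So few cells at pnd7 cannot show that the level stayed the same. Alveolar fibroblast-like cells were low at both ages, with 71.8 and 67.3 CPM. The unnamed cells held 13142 of the 26688 mitotic counts at pnd7 and 1402 of 6039 at pnd60. Part of the dividing cells of both ages therefore had no class. A cluster with at least 5 cell cycle genes among its 10 leading genes was left unnamed if under 75% of the class markers were raised. The class levels do not cover such cells, and how far this rule set them was not tested.

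**Figure D2:**
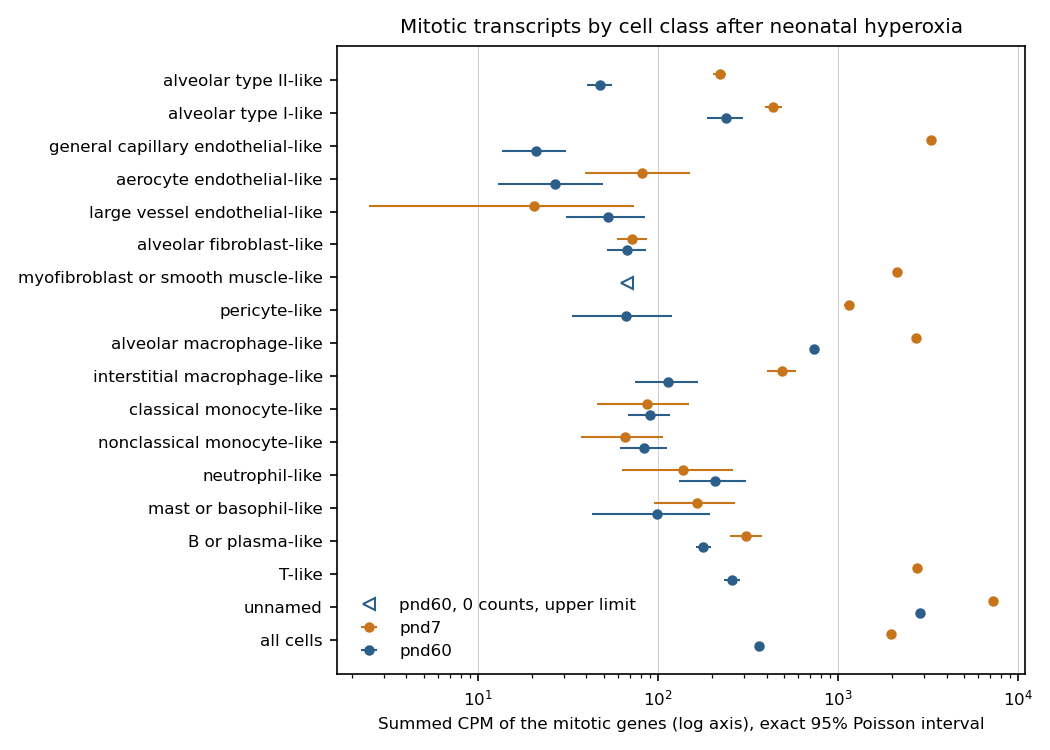
Summed level of the mitotic genes (CPM, log axis) in each class with at least 10 cells at both ages and in all cells, at pnd7 (orange) and pnd60 (blue) after hyperoxia, with exact 95% Poisson intervals. General capillary-like cells move from 3291 to 20.9 CPM, alveolar fibroblast-like cells have 71.8 and 67.3 CPM, and the open triangle marks the upper limit of 0 counts in myofibroblast or smooth muscle-like cells.

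Genes of fetal growth were lower as well. Of 11 imprinted growth genes measured 8 were lower and 0 higher, with a median of -2.11. H19, an imprinted noncoding RNA, had 45.7 CPM at pnd7 and 0.847 CPM at pnd60, a log2 ratio of -5.75, and Mest, a marker of embryonic mesoderm, 140 and 6.05 CPM, a ratio of -4.53. Cdkn1c, an imprinted inhibitor of the cell cycle, was also lower, at 118 and 28.8 CPM. Igf2r, the receptor that clears Igf2, differed little, at 87.3 and 71.3 CPM. Of 9 oncofetal genes measured 7 were lower, with a median of -3.03. Mdk, the heparin-binding growth factor midkine, had 422 and 14.9 CPM, a ratio of -4.82, and in alveolar fibroblast-like cells 1628 and 61.4 CPM. Sox9, a factor of the distal lung bud, had 31.8 and 1.21 CPM, a ratio of -4.72, and Sox11 was at 52.6 and 72.3 CPM.

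The genes of septal matrix made a further lower group. Of 16 elastic fibre genes 11 were lower and 1 higher, with a median of -2.09. Eln, elastin itself, had 1677 CPM at pnd7 and 221 CPM at pnd60, a log2 ratio of -2.92, and Fbn2, the fibrillin of developing tissue, 46.3 and 1.39 CPM, a ratio of -5.06. Ltbp4, a binding protein of latent TGF-beta that helps to assemble elastic fibres, was the higher member, at 155 and 336 CPM, a ratio of 1.11. Of 17 genes of fibrillar collagens and their matrix 13 were lower and 1 higher, with a median of -1.67. Tnc, tenascin C, had 262 and 9.98 CPM, a ratio of -4.71, and Col1a1, the main chain of type I collagen, 1331 and 269 CPM, a ratio of -2.31. Lum, the proteoglycan lumican, was the higher one, at 1.77 and 7.50 CPM. Of 17 basement membrane genes 7 were lower and 0 higher, with a median of -0.96, from Nid2 at -2.36 to Npnt at 0.40.

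The alveolar myofibroblast list had a median of -3.16, with 13 of 16 members lower. Acta2, smooth muscle actin, had 881 and 41.4 CPM, a ratio of -4.41, and Fgf18, a growth factor of septation, 37.3 and 3.21 CPM, a ratio of -3.54. Pdgfra, the receptor that marks myofibroblast precursors and, in the adult, alveolar fibroblasts, was higher, at 52.2 and 125 CPM, a ratio of 1.26. The source of elastin changed with the classes. At pnd7 pericyte-like cells held 35.9% of Eln counts and myofibroblast or smooth muscle-like cells 30.5%. The pericyte-like class was also high in Acta2, so its elastin cannot be credited to pericytes alone. At pnd60 alveolar fibroblast-like cells held 37.9% and adventitial fibroblast-like cells 32.6%.

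**Figure D3:**
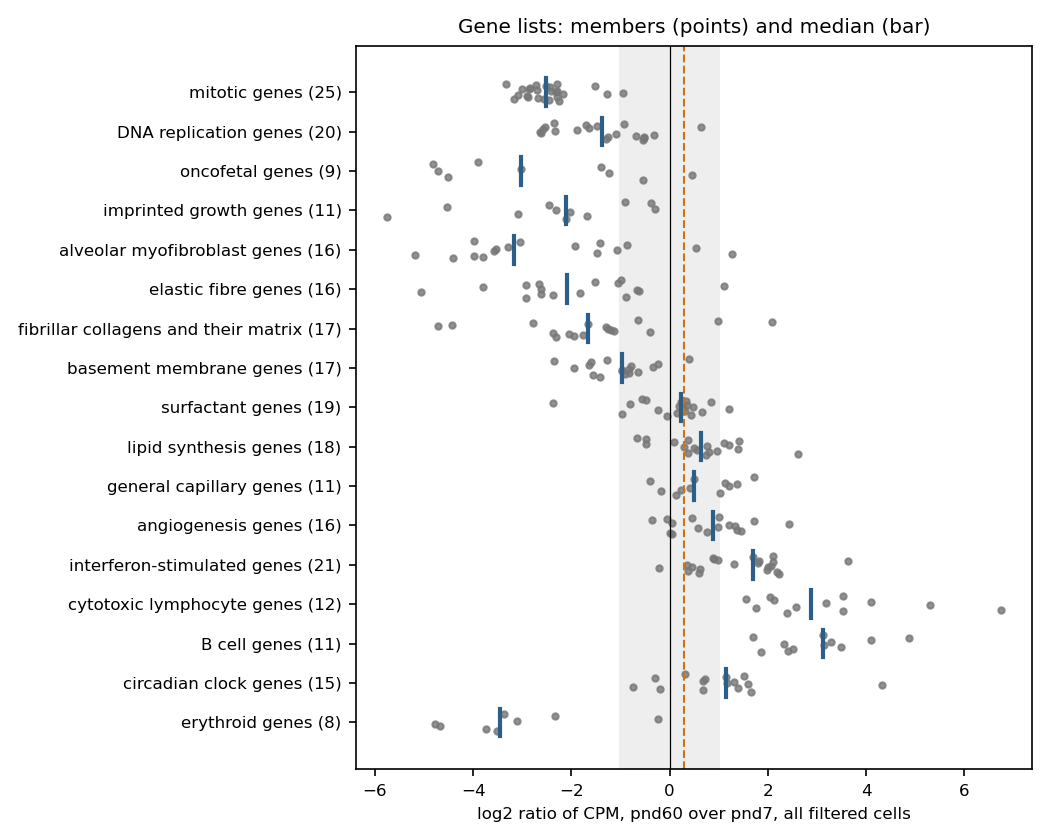
Log2 ratio of pnd60 over pnd7 after hyperoxia for each measured member (grey points) of 17 gene lists, with the number of members in brackets and the median as a blue bar; the grey band marks under 2-fold and the dashed line the median of all genes, 0.29. The medians of the mitotic, oncofetal, elastic fibre and alveolar myofibroblast lists lie left of the band at -2.52, -3.03, -2.09 and -3.16, that of the basement membrane list lies inside it at -0.96, and those of the interferon, cytotoxic lymphocyte and B cell lists lie right of it at 1.70, 2.88 and 3.12.

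Genes of type II cells moved less. Of 19 genes measured in the surfactant list 1 was higher and 1 lower. The median was 0.24, below that of all genes and at -0.04 once the ratios were centred. The list also holds other genes of type II cells, such as Slc34a2 and Lyz1. Its middle member was Chil1, a leading gene of a type II-like cluster, so the median is not one of surfactant genes alone. Sftpc, surfactant protein C, had 55328 CPM at pnd7 and 28266 CPM at pnd60, a log2 ratio of -0.97, and Slc34a2, a phosphate transporter of type II cells, 970 and 2257 CPM, a ratio of 1.22. Lyz1, a lysozyme, was the lower member, at 1304 and 252 CPM, a ratio of -2.37. Of 18 lipid synthesis genes 5 were higher and 0 lower, with a median of 0.65. Scd1, the desaturase that makes oleate, had 331 and 2022 CPM, a ratio of 2.61, with 91.7% of its pnd60 counts in type II-like cells, and Srebf2, which drives cholesterol genes, 53.8 and 141 CPM, a ratio of 1.39.

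Airway genes were higher, and the club-like class had a smaller share. The ciliated-like cluster had 6 club markers raised and Scgb1a1 among its leading genes. The club-like class may therefore not hold all club cells. Of 8 club cell genes measured 7 were higher, with a median of 3.80, and 9 of 10 ciliated cell genes, with a median of 1.52. Scgb1a1, the main secreted protein of club cells, had 450 CPM at pnd7 and 5909 CPM at pnd60, a log2 ratio of 3.72. Club-like cells were 13 at pnd7 and 6 at pnd60, and the 6 held 49.5% of its pnd60 counts, at 447405 CPM. Ciliated-like cells held a further 33.7%, and all 23 classes with at least 10 cells had counts of it. Bpifa1 and Bpifb1, antimicrobial proteins of airway secretion, had 0 counts at pnd7 and 12.5 and 21.6 CPM at pnd60, ratios of at least 5.82 and 6.61.

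Some endothelial genes were higher, and most of those listed stayed under 2-fold. Of 11 general capillary genes 5 were higher and 0 lower, with a median of 0.50, and of 16 angiogenesis genes 6 were higher and 0 lower, with a median of 0.88. Kdr, the main receptor for VEGF, had 111 and 290 CPM, a ratio of 1.38, Sema3c, a guidance factor, 58.9 and 194 CPM, a ratio of 1.72, and Apln, apelin, 18.3 and 18.9 CPM. Of 12 aerocyte genes 2 were higher and 1 lower, with a median of 0.29, that of all genes, and the lower one was Fibin, at 82.8 and 30.1 CPM.

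Immune genes were higher in the B cell, cytotoxic lymphocyte and T cell lists. Of 3 antibody secretion genes measured, 1 was higher, Jchain, and their median was 0.41. All 11 measured B cell genes were higher, with a median of 3.12, from Vpreb3 at 1.70 to Cr2, complement receptor 2 of mature follicular and marginal zone B cells, at 4.89 (1.40 and 41.4 CPM). All 12 cytotoxic lymphocyte genes were higher, with a median of 2.88, and Prf1, perforin, had 0.663 and 26.4 CPM, a ratio of 5.31. Of 13 T cell genes 11 were higher, with a median of 1.67, from Cd3g at 0.06 to Il7r, the interleukin 7 receptor, at 2.74. Of 21 interferon-stimulated genes 12 were higher and 0 lower, with a median of 1.70. Mx1, an antiviral GTPase, had 0.589 and 7.32 CPM, a ratio of 3.63, and Ifi27 113 and 97.8 CPM. Cd74, the invariant chain of MHC class II, had 1167 and 5134 CPM, a ratio of 2.14, and its activator Ciita 11.7 and 97.7 CPM, a ratio of 3.06.

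Of 14 alveolar macrophage genes 6 were higher, with a median of 0.90. Chil3, a chitinase-like protein, had 67.4 and 1130.0 CPM, a ratio of 4.07, and Krt79, a keratin of adult alveolar macrophages, 1.84 and 64.4 CPM, a ratio of 5.13. Marco, a scavenger receptor, was at 38.2 and 23.5 CPM, a ratio of -0.70. The neutrophil list was mixed, with 4 of 12 genes higher and 3 lower. Next to Camp, the granule genes Ngp (72.8 and 1.03 CPM) and Ltf (17.3 and 2.18 CPM) were lower, and Csf3r, the receptor of mature neutrophils for G-CSF, was higher, at 9.06 and 36.6 CPM, a ratio of 2.01. The erythroid list had 7 of 8 measured genes lower, with a median of -3.44, and Hbb-bs, adult beta globin, had 12358 and 485 CPM.

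Stress and senescence genes did not move together. Of 14 senescence marks 4 were higher and 4 lower, with a median of 0.05. Among the lower ones, Lmnb1, lamin B1, had 119 and 44.8 CPM, a ratio of -1.41, and Hmgb2, a chromatin protein also abundant in dividing cells, 869 and 254 CPM, a ratio of -1.77. Cdkn1a, which encodes p21, had 21.3 CPM at pnd7 and 38.3 CPM at pnd60, a ratio of 0.85, under 2-fold, and Igfbp3, a secreted binding protein of IGF, 8.25 and 112 CPM, a ratio of 3.76. Of 12 p53 target genes 2 were higher and 0 lower, with a median of 0.40. The list of secreted factors named by the study also holds receptors. Of its 23 measured members 8 were higher and 4 lower. They ranged from the matrix protease Mmp23 at -2.23 to the chemokine Cxcl14 at 3.75 (6.41 and 86.1 CPM). The median of 0.75 was that of the chemokine receptor Cxcr2. Of 15 Nrf2 target genes 5 were higher and 0 lower, with a median of -0.27, Gsta3, a glutathione transferase, being highest at 8.47 and 51.3 CPM and Hmox1, heme oxygenase, at 77.9 and 53.4 CPM. All 9 heat shock genes measured stayed under 2-fold, with a median of -0.69.

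Clock and hormone genes were higher. Of 15 circadian clock genes 8 were higher and 0 lower, with a median of 1.15. Nr1d1, the clock repressor REV-ERB alpha, had 9.35 CPM at pnd7 and 189 CPM at pnd60, a log2 ratio of 4.34, and had counts in all 23 classes of at least 10 cells at pnd60. Per2 was at 16.7 and 10.0 CPM, a ratio of -0.74. The hour of day at which the lungs were taken is not stated, so hour and age cannot be told apart for these genes. Of 8 glucocorticoid response genes 4 were higher, with a median of 1.19, among them Zbtb16 at 8.47 and 38.0 CPM and Klf9 at 72.3 and 279 CPM, and Mt1, a metallothionein, was at 345 and 188 CPM. Of 16 immediate early genes, which also respond to cell dissociation, 7 were higher and 0 lower, with a median of 0.94.

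The levels of the 6 classes with at least 50 cells at both ages were averaged with their pnd7 shares. This held the makeup of these classes, which are only part of the lung. The 11379 genes measured this way had a median of 0.33. The mitotic median was then -3.23 (25 of 25 lower) against -2.52 over all cells, and the oncofetal median -2.54 against -3.03. The elastic fibre median was -0.67 against -2.09 and the collagen median -0.69 against -1.67. The median of the 10 myofibroblast genes that could be measured was -0.35, against -3.16 for 16 genes over all cells. Myofibroblast or smooth muscle-like, pericyte-like and unnamed cells are not among the 6. At pnd7 pericyte-like cells held 35.9% of Eln counts, and unnamed cells 13142 of the 26688 mitotic counts. The medians with the makeup held and over all cells therefore differ also in the cells they cover. For some lists they differ in the genes too, such as 18 interferon genes with the makeup held and 21 over all cells. The B cell median was 0.94 against 3.12, and the interferon and clock medians, 1.39 and 1.21, stayed near 1.70 and 1.15. Single genes did not all follow their list: Acta2 had a ratio of -4.82 with the makeup held, Fbn2 -3.64 and Pdgfra 5.11.

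**Figure D4:**
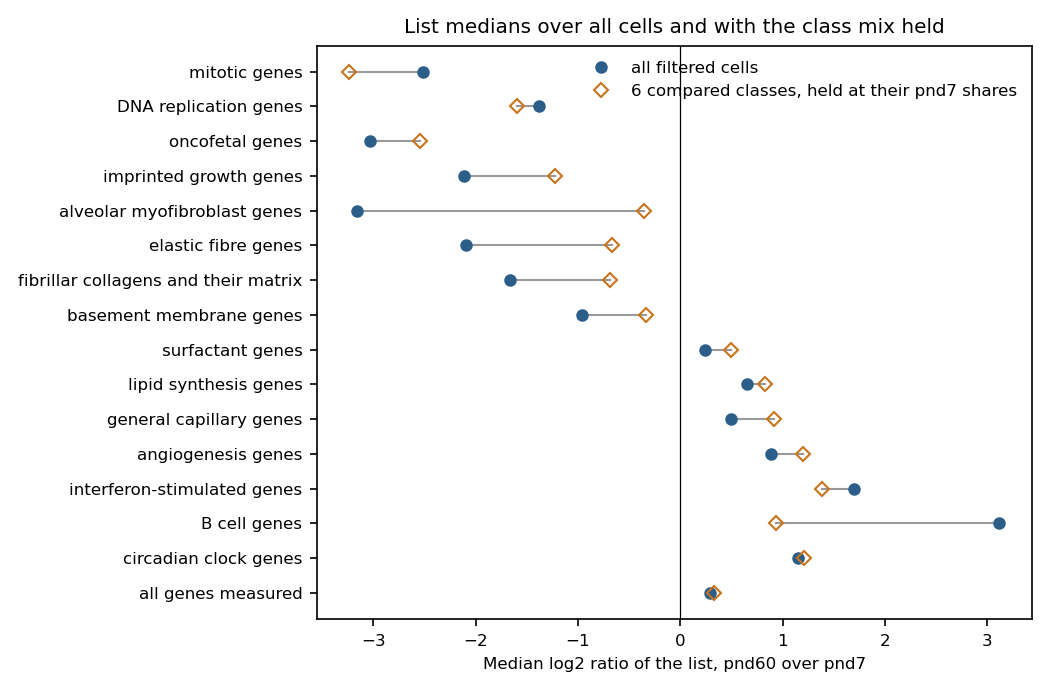
Median log2 ratio of pnd60 over pnd7 of gene lists over all filtered cells (blue points) and with 6 classes held at their pnd7 shares (orange diamonds). The B cell median moves from 3.12 to 0.94 and the alveolar myofibroblast median from -3.16 (16 genes) to -0.35 (10 genes), whereas the mitotic median moves further from 0.

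Within type II-like cells (151 at pnd7, 536 at pnd60), 977 of 6883 genes measured were higher (14.2%) and 290 lower (4.21%). All but 2 of the 151 pnd7 cells were in 1 cluster and 503 of the 536 pnd60 cells in another. Lipid synthesis was higher, with 10 of 17 genes higher and 0 lower and a median of 1.12, and Scd1 had 1380 and 9316 CPM, a log2 ratio of 2.75. DNA replication was lower, with 13 of 13 genes lower and a median of -1.61. Sox9 had 111 CPM at pnd7 and 0 counts at pnd60, a ratio of at most -6.93. Retnla, a secreted resistin-like protein, had 1767 and 89.4 CPM, a ratio of -4.31. Prmt8 had 0.393 and 85.4 CPM, a ratio of 7.76. Of 12 Nrf2 target genes 6 were higher and 0 lower, with a median of 0.76, Gclc, of glutathione synthesis, having 250 and 967 CPM. Other classes did not share this. In general capillary-like cells 1 of 5 was higher and 4 lower (median -1.27), and in T-like cells 2 of 2 were lower (median -1.47). Alveolar fibroblast-like, alveolar macrophage-like and B or plasma-like cells had medians of -0.065, 0.018 and 0.0034.

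Other genes at the top and bottom of the type II-like cells were genes of other cells. Mgp, Gpx3 and Inmt, which are fibroblast genes, had 177, 77.2 and 111 CPM at pnd60 against 1.57, 0.786 and 1.57 CPM at pnd7, and Cd93, an endothelial gene, 30.1 against 0.393 CPM. The hemoglobin genes Hbb-bt and Hbb-bs were lowest, Hbb-bs with 9719 CPM at pnd7 and 15.2 CPM at pnd60. Over the 23 classes with at least 10 cells at pnd60, Mgp, Gpx3, Inmt and Scgb1a1 had counts in every one, with median class levels of 177, 136, 170 and 456 CPM. At pnd7 these medians were 4.09, 12.7, 0 and 20.4 CPM over 19 classes, and Hbb-bs, with a median of 5437 CPM, had 20.8 CPM at pnd60. Such genes had counts also in classes not known to make them. Free RNA in droplets was not estimated, and its part in these values was not tested.

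General capillary-like cells (119 and 563) had 841 of 4825 genes higher (17.4%) and 728 lower (15.1%), and the clusters that held them at the 2 ages shared 1 cell. All 14 mitotic genes measured were lower, with a median of at most -6.50, since some of them, among them Top2a and Ube2c, had 0 counts at pnd60 and stand at their bounds, and Mki67 was at 271 and 0.836 CPM (1 count). Mest was lower too, at 688 and 12.5 CPM, a ratio of -5.78, as were Eln (1206 and 206 CPM) and Apln, at 90.6 and 16.7 CPM, a ratio of -2.44. Vegfa, the main endothelial growth factor, was higher, at 169 and 1451 CPM, a ratio of 3.11, and Sema3c, at 227 and 1902 CPM, a ratio of 3.07. The highest gene was Plscr2, a phospholipid scramblase, with 0.847 and 117 CPM, a ratio of 7.11. Of 12 interferon-stimulated genes 8 were higher and 0 lower, with a median of 1.38, Gbp4 having 86.4 and 355 CPM. In alveolar fibroblast-like cells 2 of 3 were higher (median 1.43). The medians were 0.62 in type II-like cells (1 of 5 higher) and 0.85 in T-like cells (1 of 5). They were 0.69 in B or plasma-like cells (2 of 7 higher, 1 lower) and 0.087 in alveolar macrophage-like cells (1 of 3 higher).

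Alveolar fibroblast-like cells (145 and 250) had 772 of 4690 genes higher (16.5%) and 754 lower (16.1%), and the main clusters of the ages shared 0 cells. Of the 145 pnd7 cells, 37 were in a cluster with 0.319 times the median counts of their libraries. The highest gene was Crispld2, a secreted glycoprotein that responds to glucocorticoids, with 0.641 and 836 CPM, a log2 ratio of 10.35. Inmt had 17.3 and 10422 CPM, a ratio of 9.23, and Colq, the collagen tail of acetylcholinesterase, 0.641 and 369 CPM, a ratio of 9.17. Complement C3 had 0.641 and 284 CPM, a ratio of 8.79. The Inmt level stood far above the median class level of 170 CPM given above. Pdgfra had 45.5 and 1623 CPM, a ratio of 5.16, and Ltbp4 469 and 2638 CPM, a ratio of 2.49. Acta2, at 798 and 12.9 CPM, and Vcan, the proteoglycan versican, at 843 and 21.8 CPM, were lower, with ratios of -5.95 and -5.27. All 7 clock genes measured were higher, with a median of 3.15, and 12 of 14 immediate early genes, with a median of 2.06.

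Alveolar macrophage-like cells differed least, with 220 of 4474 genes higher (4.92%) and 140 lower (3.13%). The same cluster held 40 of 73 cells at pnd7 and 183 of 194 at pnd60. Another 21 pnd7 cells were in a cluster with 0.349 times the median counts of their libraries and 7 erythroid markers raised. That cluster had 0 cells at pnd60. A cluster led by Top2a, with other cell cycle genes among its leading genes, held 12 cells at pnd7 and 11 at pnd60. Krt79 had 20.8 and 649 CPM, a ratio of 4.96, and Chil3 908 and 11152 CPM, a ratio of 3.62. The highest ratios were of genes abundant in other cells. Mgp had 1.10 (1 count) and 62.8 CPM, a ratio of 5.84, and Scd1 3.29 (3 counts) and 183 CPM, a ratio of 5.80. Over the library, 91.7% of pnd60 Scd1 counts were in type II-like cells, and the source of the macrophage counts was not tested. Of 15 mitotic genes 14 were lower, with a median of -1.83. Mmp12, macrophage elastase, had 138 and 16.2 CPM, a ratio of -3.09. Histone genes H1f5 and H2ac8 were lowest, with ratios of -4.52 and -4.42. The part of the cluster led by Top2a in the mitotic and histone ratios was not tested.

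B or plasma-like cells (66 and 1266) had 1242 of 4543 genes higher (27.3%) and 278 lower (6.12%), and T-like cells (52 and 535) 854 of 3142 higher (27.2%) and 329 lower (10.5%). Genes of other cells were among the highest: Scgb1a1, Gpx3, Inmt and Mgp in B or plasma-like cells, and Inmt, Mgp and Gpx3 in T-like cells. Inmt had 0 counts at pnd7 in both, and 256 and 207 CPM at pnd60. How far such genes make up the shares of higher genes was not tested. Of the 66 pnd7 B or plasma-like cells 44 were in the cluster led by Igha_1, with 24 at pnd60, and 603 of the 1266 pnd60 cells were in a cluster led by Fcer2a with 1 pnd7 cell, so the B cells compared were of different clusters. In B or plasma-like cells 4 of 11 B cell genes were higher, with a median of 0.81 against a median of 0.51 over all genes of the class. Cr2 had 43.2 and 276 CPM, a ratio of 2.68, and Fcer2a, the low-affinity IgE receptor of mature B cells, 296 and 910 CPM, a ratio of 1.62. Bhlhe41, a transcription factor of B-1a cells, was lower, at 225 and 25.2 CPM, a ratio of -3.16. The T-like cells also differed in makeup: the Rag1 cluster held 13 of 52 at pnd7 and 17 of 535 at pnd60, and a cluster led by Cd8b1 held 4 and 204. In T-like cells Top2a had 679 and 47.4 CPM, a ratio of -3.84, and Il7r 230 and 835 CPM, a ratio of 1.86. Ly6c2, a surface protein of memory CD8 T cells, had 41.3 and 354 CPM, a ratio of 3.1.

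The same ages were compared in the room air libraries, which share no library with the hyperoxia comparison. Of 12784 genes measured in both, 97.8% had log2 ratios within 1 of each other, and the ratios correlated across genes with a Pearson r of 0.94, which is a description, since genes of 1 library are not independent. Of the genes higher after hyperoxia, 72.1% were higher in air, and of those higher in air, 90.1% were higher after hyperoxia. For lower genes the shares were 79.9% and 85.0%. In air 15.1% of 13003 genes were higher and 9.35% lower. The mitotic median was -2.04 in air against -2.52, the elastic fibre median -2.25 against -2.09, and the B cell median 2.47 against 3.12. The mesenchymal share had a log2 ratio of -1.18 in air against -1.74. The endothelial share had 1.53 against 0.40, from 6.20% at pnd7 in air and 13% after hyperoxia. Erythroid-like cells, which lower the other shares, were 22.7% of the pnd7 cells in air and 6.90% after hyperoxia. Of the 524 in air, 300 were in the cluster with 8 myofibroblast or smooth muscle markers raised. The other 224 were in the cluster with 4 lymphatic markers raised. Whether these cells belonged to the mesenchymal or endothelial shares was not tested. With 1 library in each of the 4 groups none of the differences between the comparisons could be tested.

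**Figure D5:**
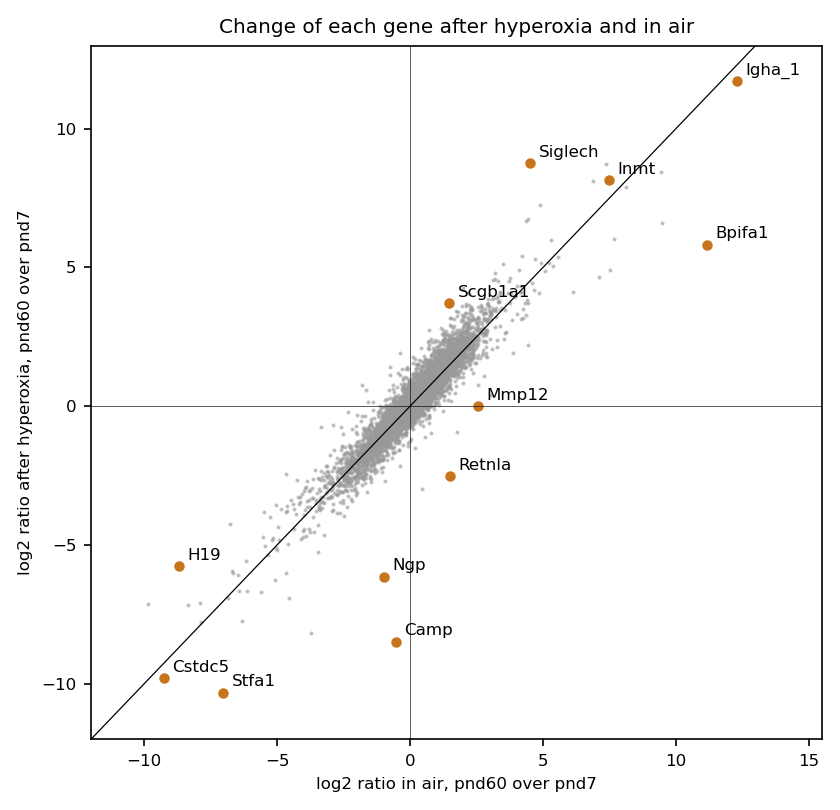
Log2 ratio of pnd60 over pnd7 of each gene measured in both comparisons, in room air (x axis) and after hyperoxia (y axis), with the diagonal of equal ratios and named genes in orange. Most points follow the diagonal, Retnla is the 1 gene at least 2-fold higher in air and 2-fold lower after hyperoxia, and Camp and Ngp lie far below the diagonal.

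There were 34 genes whose ratios, at their bounds where a level was 0, differed by at least 2. Among genes with counts in all 4 libraries the widest gap was in Camp, at -8.49 after hyperoxia (65.3 and 0.181 CPM) and -0.54 in air (22 and 15.1 CPM). Bpifa1 had 0 counts at pnd7 in both comparisons, so its gap has no set size, and at pnd60 it had 12.5 CPM after hyperoxia and 415 CPM in air. Ngp and Ltf, of the same neutrophil granules as Camp, had -6.15 and -2.99 after hyperoxia and -0.99 and 0.46 in air. Scgb1a1 had 3.72 after hyperoxia and 1.48 in air, from 450 CPM and 2970 CPM at pnd7. Mmp12 was at 9.50 and 9.50 CPM after hyperoxia and at 1.74 and 10.2 CPM in air, so the gap lay at pnd7. Retnla was the 1 gene at least 2-fold changed in opposite directions, a count that was 45 when every cell was thinned to 1000 counts.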

How the data were processed

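Single-cell libraries of mouse lung were made with 10x Genomics 3' chemistry, and 1 hyperoxia library an age (pnd7 and pnd60) was compared, with the room air library of each age beside it. The authors deposited raw counts of unique molecules per gene and barcode, made with Cell Ranger against mm10 per the submitters' processing notes, which also name Seurat 3.2.1, with no values normalized. Of 42454 features, 1740 genes had more than 1 feature of the same symbol, among them Ager, Pdpn, Sftpb and many MHC genes, and levels of such genes are not reported as totals. Only 2 features were named mt-, and their filter removed 11 pnd7 and 2 pnd60 barcodes.

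Counts were summed over kept cells, and exact Poisson, Clopper-Pearson and binomial intervals were computed (scipy 1.17.1). The code for them was run on data simulated under the same counting models. Such data hold no spread between cells or mice, so the run cannot show that the intervals cover it. With 1 library an age no model or p-value was used, in place of the cell-wise rank test of the study. Cells were clustered (scanpy 1.11.5, 3000 variable genes, 50 components, 15 neighbours, Leiden resolution 2) into 51 clusters and named from 3 or more raised markers. B and plasma clusters were merged, because no pnd7 cell of the cluster led by Igha_1 had a count of it. Scrublet called 4 doublets at pnd7 and 157 at pnd60, and the pnd7 call is too low to have worked, so no cell was removed by it. The label transfer of the study was not made here. RefSeq promoters came from GRCm38.p6.

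The members and the 39 gene lists were chosen with earlier results of these data known. Genes named were the 15 highest and 15 lowest ratios, the 5 highest and lowest of a class, and the first 3 and the 2 highest and lowest of a list, with others chosen after their values were seen. Cell filters, doublets, totals, weighting, count minimum, fold and clustering were varied, and thinning left out 1 cell at pnd7 and 46 at pnd60.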

Additional observations from a re-analysis of the deposited data

Results flagged for a closer look

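The gene Retnla and the share of club-like cells moved in opposite directions in the hyperoxia and the room air comparison. Neither difference was tested, since each of the 4 groups is 1 library. Retnla had 354 CPM at pnd7 and 61.8 CPM at pnd60 after hyperoxia, a log2 ratio of -2.52, and 23.1 and 64.7 CPM in air, a log2 ratio of 1.49. Within type II-like cells the direction was the same in both, with log2 ratios of -4.31 after hyperoxia and -1.75 in air (68.6 and 20.5 CPM). Over all cells the pnd60 levels of the comparisons lay closer together than the pnd7 levels. After hyperoxia, type II-like cells held 93.5% of the pnd7 counts and dendritic-like cells 64.7% of the pnd60 counts.

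Club-like cells were 13 of 1246 at pnd7 and 6 of 4756 at pnd60 after hyperoxia, a log2 ratio of -3.05, against 1 of 2308 and 6 of 4397 in air, a log2 ratio of 1.66. The air ratio rests on 1 cell at pnd7. The ciliated-like class, whose cluster had 6 club markers raised, had 6 cells at pnd7 after hyperoxia and 117 in air. Scgb1a1 had 450 CPM at pnd7 after hyperoxia and 2970 CPM in air. Whether club cells were classed as ciliated-like was not tested. Scgb1a1, the main club cell gene, was higher at pnd60 in both comparisons. The 13 pnd7 cells had a median of 2366 counts and the 6 pnd60 cells 14250 counts.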

How the results depend on the processing

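No paired analysis was possible because each group is 1 library and no result comes from a test. For the same reason no replicate could be left out. Against counts of 2469 higher and 1227 lower genes, all deposited barcodes gave 6133 and 666, ratios centred on the median gene 1587 and 1879, no count minimum 5513 and 3979, a 1.5-fold threshold 4562 and 2253, and a 4-fold threshold 553 and 401. TMM factors gave 1692 higher and 1755 lower genes.

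Against a mitotic median of -2.52, all deposited barcodes gave -1.97, centring -2.80, CPM averaged over cells -3.28, thinning every cell to 1000 counts -3.36 and the class makeup held at pnd7 -3.23. Against an elastic fibre median of -2.09, the same settings in that order gave -1.52, -2.38, -2.26, -2.30 and -0.67, and TMM -2.34. Against a myofibroblast median of -3.16, all barcodes gave -2.42, centring -3.45, TMM -3.40, thinning -2.90 and the makeup held -0.35, the last over 10 genes in place of 16. Against a median of 0.24 for the surfactant list, all barcodes gave 0.92, centring -0.045, TMM -0.000363 and CPM averaged over cells -0.15. Thinning gave -0.13 and the makeup held 0.50, so the sign of this median is not settled. Against a B cell median of 3.12, all barcodes gave 4.01, centring 2.83, TMM 2.88 and the makeup held 0.94. The interferon median of 1.70 was 1.22 after thinning. Centring and TMM subtract a constant by construction, and the causes of the other shifts were not tested.

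Against an epithelial share ratio of -0.35, Seurat integration gave -0.81, a lower Leiden resolution -0.62, each cell classed by its own summed markers -0.97 and a filter of 500 to 8000 genes with under 10% mt- counts -0.96. The myeloid ratio of 0.14 was -0.10 with Seurat integration, the lymphoid ratio of 2.11 was 1.72, and the endothelial ratio of 0.40 was 2.86 at the lower resolution. The class given was the same under Seurat integration for 82.3% of pnd7 and 97.4% of pnd60 cells. Genes called in opposite directions after hyperoxia and in air were 1, with 45 after thinning and 2 after centring. Leaving out the 5% of cells with the highest Scrublet score, an alternative chosen after seeing the data, gave 2407 higher and 1235 lower genes.

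Of the values of the main results under these alternatives 89 counted as unmoved and 46 did not, and of those of single lists, classes and genes 634 did and 275 did not. Ratios that rest on fewer than 4 counts or cells at an age are wide, and 0 counts stand at the floor of 3.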

Other observations

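Some genes with large ratios within a class, not described above, were chosen after their values were seen. In general capillary-like cells Xdh, xanthine dehydrogenase, had 12.7 CPM at pnd7 and 390 CPM at pnd60 after hyperoxia, a log2 ratio of 4.94, with 5.13 in air, and Cpe, carboxypeptidase E, 135 and 0.836 CPM, a ratio of -7.33, with -4.81 in air. In alveolar fibroblast-like cells Nnat, an imprinted proteolipid, had 244 and 1.98 CPM, a ratio of -6.95, with -5.89 in air, and Aldh1a1, which makes retinoic acid, 7.05 and 1628 CPM, a ratio of 7.85, with 7.15 in air.

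Among the genes whose ratios differed by at least 2 between the comparisons, Cyp1a1, a target of the aryl hydrocarbon receptor, had 0.368 and 11.2 CPM after hyperoxia, a log2 ratio of 4.93, and 0.420 and 77.7 CPM in air, a ratio of 7.53. Cxcl13, a chemokine for B cells, had 4.94 and 8.41 CPM after hyperoxia, a ratio of 0.77, and 4.99 and 1.42 CPM in air, a ratio of -1.81. Slc6a4, the serotonin transporter of platelets and lung endothelium, had 3.09 and 8.29 CPM after hyperoxia and 13 and 7.73 CPM in air. An unnamed cluster led by Itga2b, the platelet integrin, with Slc6a4 among its top genes, had 3 cells at pnd7 after hyperoxia and 130 in air, and its part in the Slc6a4 levels was not tested.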
